A study of Mus musculus with 2 samples.

Results

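The genes examined were the 6 members of 2 imprinted domains of mouse chromosome 6, namely Sgce, Peg10 and Ppp1r9a in the Peg10 domain and Mest, Copg2 and Klf14 in the Mest domain. The rule names the genes and uses no methylation value, although they were chosen with earlier results of these data known. Each gene was taken from 5 kb upstream of its start to its end in the GENCODE M21 annotation, which gave 533 CpG cytosines of the 1782730 in the whole data set and 6 of the 33483 autosomal genes with at least 1 measured CpG. The Peg10 domain held 229 of these cytosines and the Mest domain held 304.

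DNA methylation was measured by reduced representation bisulfite sequencing (RRBS) in Xmas mESCs, female mouse embryonic stem cells of the C57/Bl6 strain that carry a different fluorescent reporter on each X chromosome. The cells were grown by the modified culture method of the study for 7 passages according to the sample labels, while the methods text gives a larger number, and FACS of the reporters then separated XX cells from XO cells, which have lost an X chromosome. There was 1 XX library and 1 XO library, both from the Xmas line without further treatment, so no difference below has a replicate error and none was tested. Each value is the percentage of the reads at a cytosine that were methylated (%mCpG). The strands of a CpG are listed apart. Counts of measured CpGs below are therefore counts of cytosines, except where sites are named, and a CpG read on both strands counts once per strand. The number of reads is not given, so the depth behind each value is unknown, and a value of 0% can rest on few reads. The table holds no measure of karyotype or of cell identity, so the labels could not be checked against markers.

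In imprinted domains, 1 parental allele carries DNA methylation that is laid down in the germline, and genes of the domain are expressed from only the maternal or only the paternal chromosome. The promoter of Mest and the promoter shared by Peg10 and Sgce are maternally methylated control regions, so an intact imprint leaves methylation on the maternal copy alone. The factor ZFP57 binds the methylated hexamer TGCCGC and protects such regions from demethylation in the early embryo and in embryonic stem cells. Naive female embryonic stem cells with 2 active X chromosomes are known for low DNA methylation, including at imprinted regions.

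RRBS reads the ends of fragments cut by MspI at CCGG. The forward strand of a fragment is read from its left end and the reverse strand from its right end, so strand and position within a fragment go together, and CpGs of 1 fragment and strand can come from the same reads. Sequences are shown for the stretches on which the main values rest, and for a pair of stretches at the control promoters in which no CpG was measured. All are the forward strand of GRCm38.p6 from the RefSeq copy of the genome. In the first 5, capitals mark the CpGs that had a value on either strand.
Peg10 first exon, noncoding, 30 bases around the CpG read on both strands (chr6:4747404-4747433): atcctgaccaactaCGacctggggagagca
Mest intron, upstream of the main start (chr6:30735294-30735509): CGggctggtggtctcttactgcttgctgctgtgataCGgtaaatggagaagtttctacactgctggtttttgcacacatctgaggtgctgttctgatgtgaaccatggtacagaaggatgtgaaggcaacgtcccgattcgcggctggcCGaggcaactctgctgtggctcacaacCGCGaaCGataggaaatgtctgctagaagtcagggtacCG
Mest intron, downstream of the main start (chr6:30739254-30739334): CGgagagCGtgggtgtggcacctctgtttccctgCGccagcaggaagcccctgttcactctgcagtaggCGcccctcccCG
Copg2 intron (chr6:30803025-30803078): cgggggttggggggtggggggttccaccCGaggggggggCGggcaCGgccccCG
Ppp1r9a coding exon (chr6:4906139-4906286): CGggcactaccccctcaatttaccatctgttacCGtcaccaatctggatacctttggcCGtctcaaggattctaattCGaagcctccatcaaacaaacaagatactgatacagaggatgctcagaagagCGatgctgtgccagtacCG
In the other two, no CpG had a value, and capitals mark TGCCGC or its reverse complement GCGGCA.
Between the Sgce and Peg10 starts, intergenic (chr6:4747208-4747305): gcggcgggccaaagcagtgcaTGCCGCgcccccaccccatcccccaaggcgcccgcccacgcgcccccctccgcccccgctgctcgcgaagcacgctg
Mest intron of the transcripts from upstream starts, before the main start (chr6:30737606-30737813): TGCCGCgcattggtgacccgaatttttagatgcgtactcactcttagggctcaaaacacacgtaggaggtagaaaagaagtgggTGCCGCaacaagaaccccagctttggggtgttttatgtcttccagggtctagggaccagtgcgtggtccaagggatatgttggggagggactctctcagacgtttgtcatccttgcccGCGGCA

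Over the 533 cytosines of the 6 genes, methylation averaged 13.8% in XX against 19.2% in XO. XX was lower by at least 10 percentage points at 138 of them (25.9%), against 34.6% of the 1756096 autosomal CpG cytosines, and higher by at least 10 points at 54 (10.1%), against 9.14%. The difference lay mostly away from transcription starts. Within 1 kb of an annotated start of the 6 genes, 393 cytosines averaged 6.996% in XX against 7.95% in XO. The other 140 averaged 32.8% in XX against 50.9% in XO, and 116 of them were lower in XX. The autosomal share lower by any amount was not counted. All autosomal CpGs outside main start windows, intergenic ones included, averaged 25.6% in XX against 39.1% in XO on the forward strand. On the reverse strand they averaged 25.7% and 39.3%. The cytosines came from 75 MspI fragments of 29 to 343 bp, of which 33 (44.0%) were lower and 7 (9.33%) higher in XX by at least 10 points. Among the 218565 MspI fragments with a measured CpG in autosomal protein-coding genes, taken from 5 kb upstream to the gene end, 42.9% were lower and 5.84% higher by that much, so the share lower in the 6 genes was near this background. Of the 37 fragments with no CpG near a start, 27 (73.0%) were lower and 3 (8.11%) higher, with a median difference of -19.2 points. Of the 116861 autosomal fragments with no CpG within 1 kb of an annotated start of a protein-coding gene, 62.6% were lower and 5.58% higher, with a median of -15.7 points, so most fragments of this kind were lower in XX genome-wide. Of the 37 fragments of the 6 genes, 24 were over 50% methylated in XO cells and 8 in XX cells. The autosomal share over 50% was not counted.

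**Figure D1:**
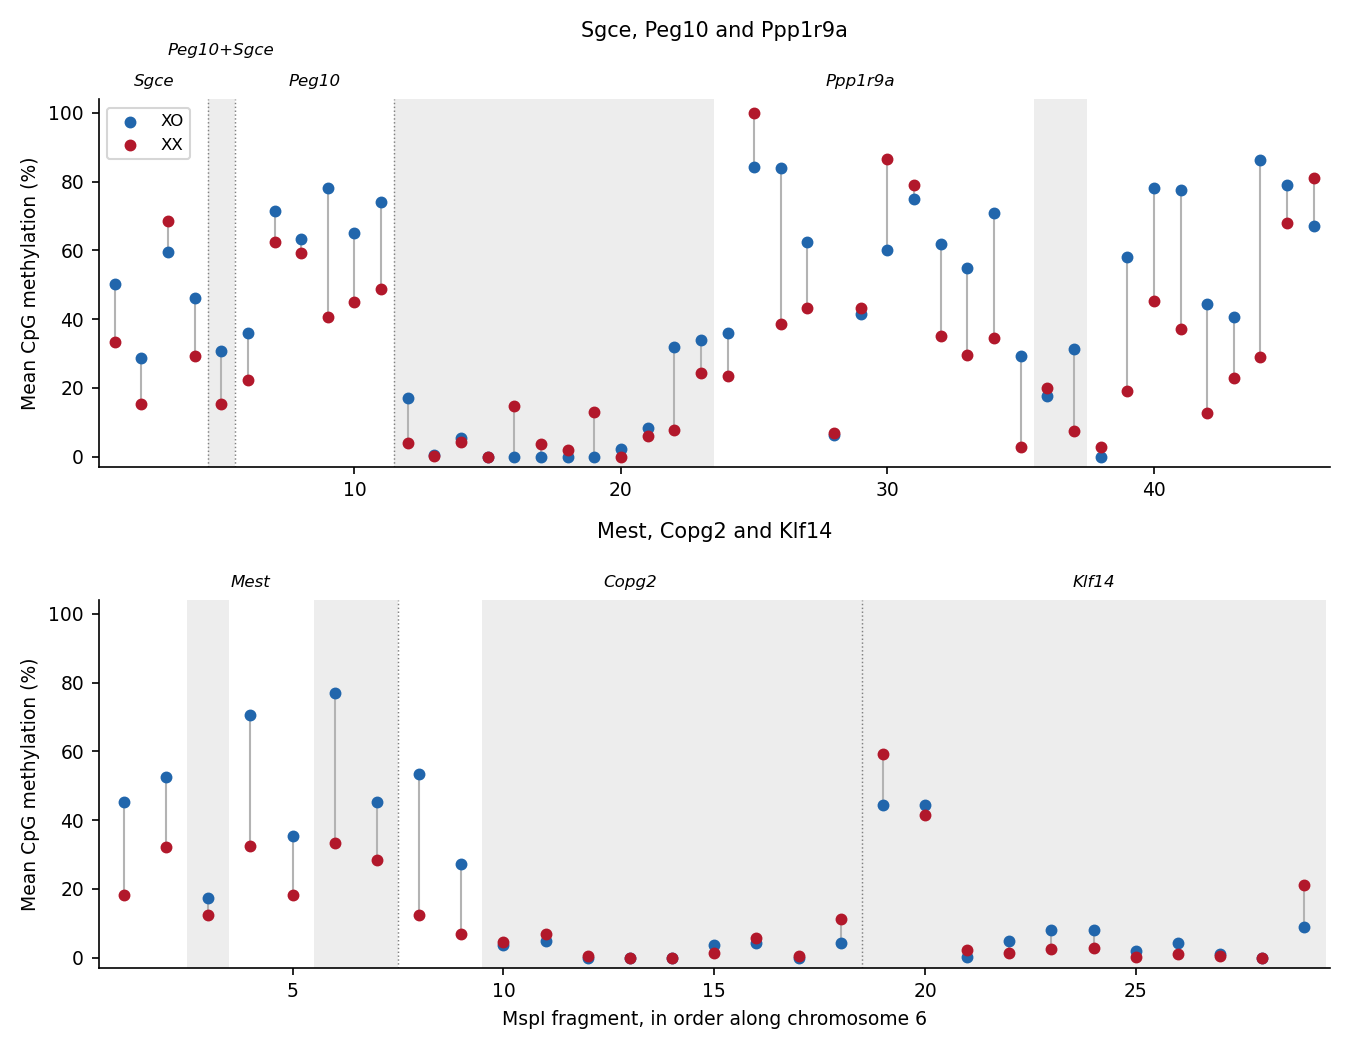
Mean CpG methylation (%) of each of the 75 MspI fragments with a measured CpG in the 6 genes, in order along chromosome 6, in XX (red) and XO (blue) cells, with a grey line joining the values of a fragment. Grey bands mark fragments with a CpG within 1 kb of an annotated start, and dotted lines separate genes. XX lies below XO at all 4 Mest and 6 Peg10 fragments outside the bands and at the fragment shared by Peg10 and Sgce, while the fragments at the Copg2, Klf14 and Ppp1r9a starts mostly lie near 0% in both.

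Peg10 is a paternally expressed gene derived from a retrotransposon and is required in the placenta, and Sgce, which encodes epsilon-sarcoglycan of the dystrophin-associated complex, is transcribed from the opposite strand of the same control region. Their main starts lie at 4747306 and 4747176 on chromosome 6. All measured CpGs within 1 kb of either start were the same 14 cytosines of a single 136 bp fragment in the noncoding first exon of Peg10, from 49 to 184 bp downstream of the Peg10 start, so both genes have the same value. They averaged 15.4% ± 13.4 in XX against 30.8% ± 3.23 in XO (SD over 14 CpGs, which is not replicate error), so the XX mean was 0.499 of the XO mean. The other start of Peg10 and 9 other starts of Sgce also have these 14 CpGs in their windows, and the windows of the remaining 2 Sgce starts held none.

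The strands of this fragment differed in XX cells. On the forward strand, the 6 CpGs nearest the Peg10 start were 0% at 5 and 5.88% at 1 in XX cells, while all 6 were 27.3% in XO cells. On the reverse strand, the 8 CpGs ranged from 22.2% to 32% in XX, below the 33.3% to 34.8% in XO. XX minus XO was thus -26.3 points over the forward CpGs and -7.29 points over the reverse CpGs, and XX was below XO at every CpG. Neighbouring CpGs of a strand often had equal values, so the 14 values are not 14 independent readings. At the CpG of the 30 bases shown above, the only one of the fragment read on both strands, the forward strand was 5.88% in XX against 27.3% in XO, and the reverse strand was 32% in XX against 34.8% in XO. Over the windows of all autosomal main starts, XX minus XO was -1.40 points over 390975 forward CpGs, close to the -1.35 points over 390983 reverse CpGs. These are means over many fragments, so they do not show how often the strands of a single fragment differ as here.

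**Figure D2:**
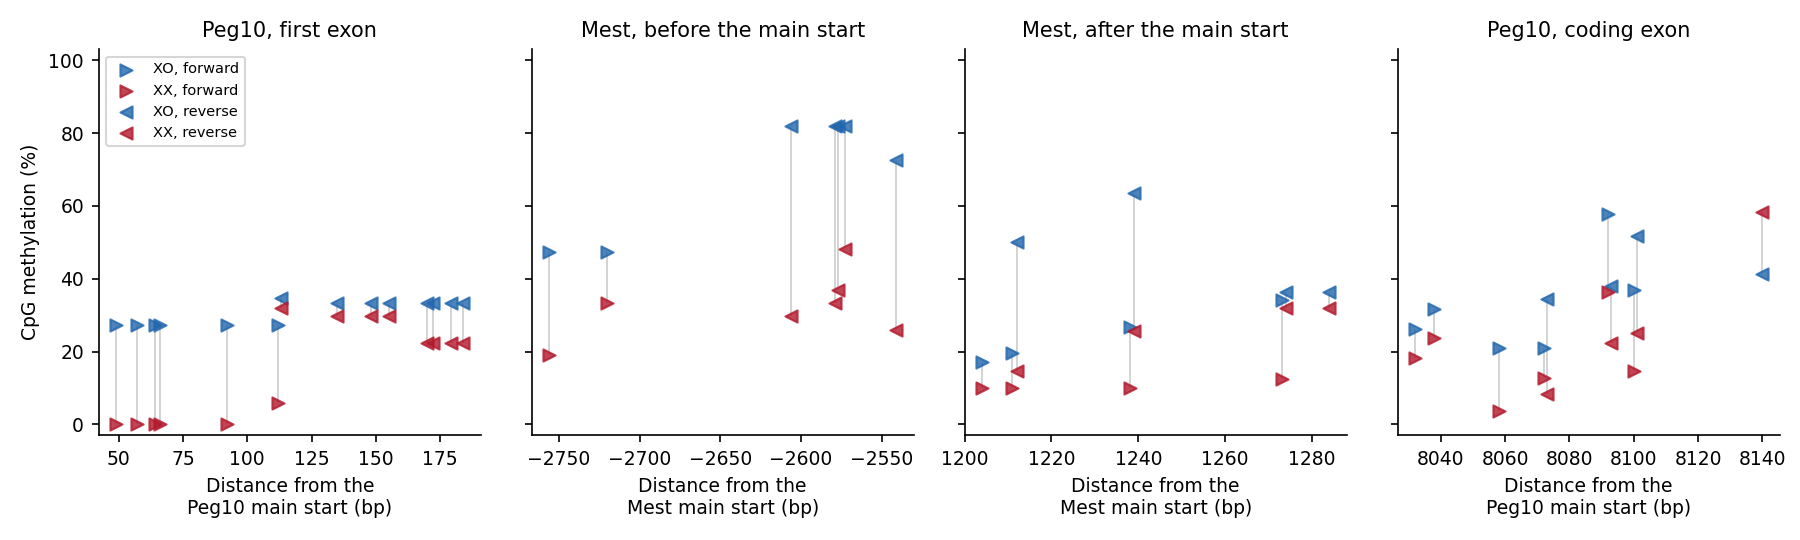
Methylation (%) of single CpG cytosines against the distance (bp) from the main start of Peg10 or Mest, in XX (red) and XO (blue) cells, with triangles pointing right for the forward and left for the reverse strand. In the first exon of Peg10 the XX values are at or near 0% on the forward strand and 22.2% to 32% on the reverse strand, and the other panels show XX below XO on both strands at Mest and at all but 1 CpG of the coding fragment of Peg10.

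The gene body of Peg10, outside the start windows, was covered by 28 CpGs of 6 fragments, all in the coding exon, from 8032 bp downstream of the start. They averaged 43.8% ± 23.4 in XX against 57.6% ± 20.5 in XO (SD over CpGs). XX was lower on the forward strand (39.4% against 55.3% over 15 CpGs) and on the reverse strand (48.9% against 60.2% over 13 CpGs), and at 22 of the 28 CpGs. With strands pooled, all 6 fragments were lower in XX, with differences from -37.6 to -4.07 points. Both strands were lower at 3 of them, and at the other 3 the strands went in opposite directions. Methylation was lowest in both libraries on the fragment nearest the start, with 22.3% in XX against 36.0% in XO. Sgce had 13 CpGs in its body on 4 fragments, with 38.8% ± 23.8 in XX against 46.8% ± 17.9 in XO, a difference of -7.95 points. On 3 of its fragments the difference was between -16.8 and -13.2 points. On the other fragment, in an intron, XX was 68.6% and XO 59.4%, with 43.8% and 72.7% at the forward CpG and 76.9% and 55% over 3 reverse CpGs. Leaving out the 4 CpGs of Sgce in soft-masked repeats brought its difference to -4.06 points.

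Ppp1r9a encodes neurabin-1, a scaffold protein that binds actin and protein phosphatase 1, and is reported to be expressed mainly from the maternal allele in extraembryonic tissue. Its 11 annotated starts fell into groups with different values. At the main start (4903320), 93 CpGs averaged 5.47% ± 7.19 in XX against 3.57% ± 8.003 in XO, and the windows of 6 other starts beside it held 92 or 93 CpGs, all or nearly all of them shared. On its fragments, XX was higher than XO by 14.8 points at 14 reverse CpGs of 1 fragment and by 13.0 points at 8 CpGs of another. All of these CpGs were 0% in XO cells. XX was lower by 13.2 points at 9 CpGs of a further fragment. The forward strand of the main window averaged 3.65% in XX against 4.20% in XO over 35 CpGs, and the reverse strand 6.57% and 3.18% over 58 CpGs.

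Some 2 kb further into the gene, the windows of the starts at 4905416 and 4906407 shared 12 CpGs of a coding exon, which averaged 16.1% ± 11.6 in XX against 32.9% ± 20.9 in XO. The forward strand gave 13.7% in XX against 49.5% in XO and the reverse strand 18.4% and 16.3%, with 6 CpGs each. On the coding fragment shown above, the forward strand was 17.9% in XX against 53.6% in XO, whereas the reverse strand was 30.6% in XX against 14.3% in XO. The other fragment with these CpGs was lower in XX on both strands. Its forward strand was 9.52% in XX against 45.5% in XO and its reverse strand 6.17% and 18.3%. The windows of the remaining starts held 1 CpG (20% in XX against 17.6% in XO at 5110659) and 2 CpGs (7.48% and 31.3% at 5113459), under the minimum of 3. The body of Ppp1r9a, a gene of 262.7 kb, had 66 CpGs on 21 fragments, with 33.4% ± 28.5 in XX against 50.6% ± 26.9 in XO. The difference was similar on the forward strand (-16.3 points, 32 CpGs) and the reverse strand (-18.0 points, 34 CpGs). Of the 21 fragments, 14 (66.7%) were lower and 3 (14.3%) higher in XX by at least 10 points, beside the 62.6% and 5.58% of autosomal fragments away from starts, with differences from -57.4 to 26.7 points, each of these extremes at a single CpG.

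**Figure D3:**
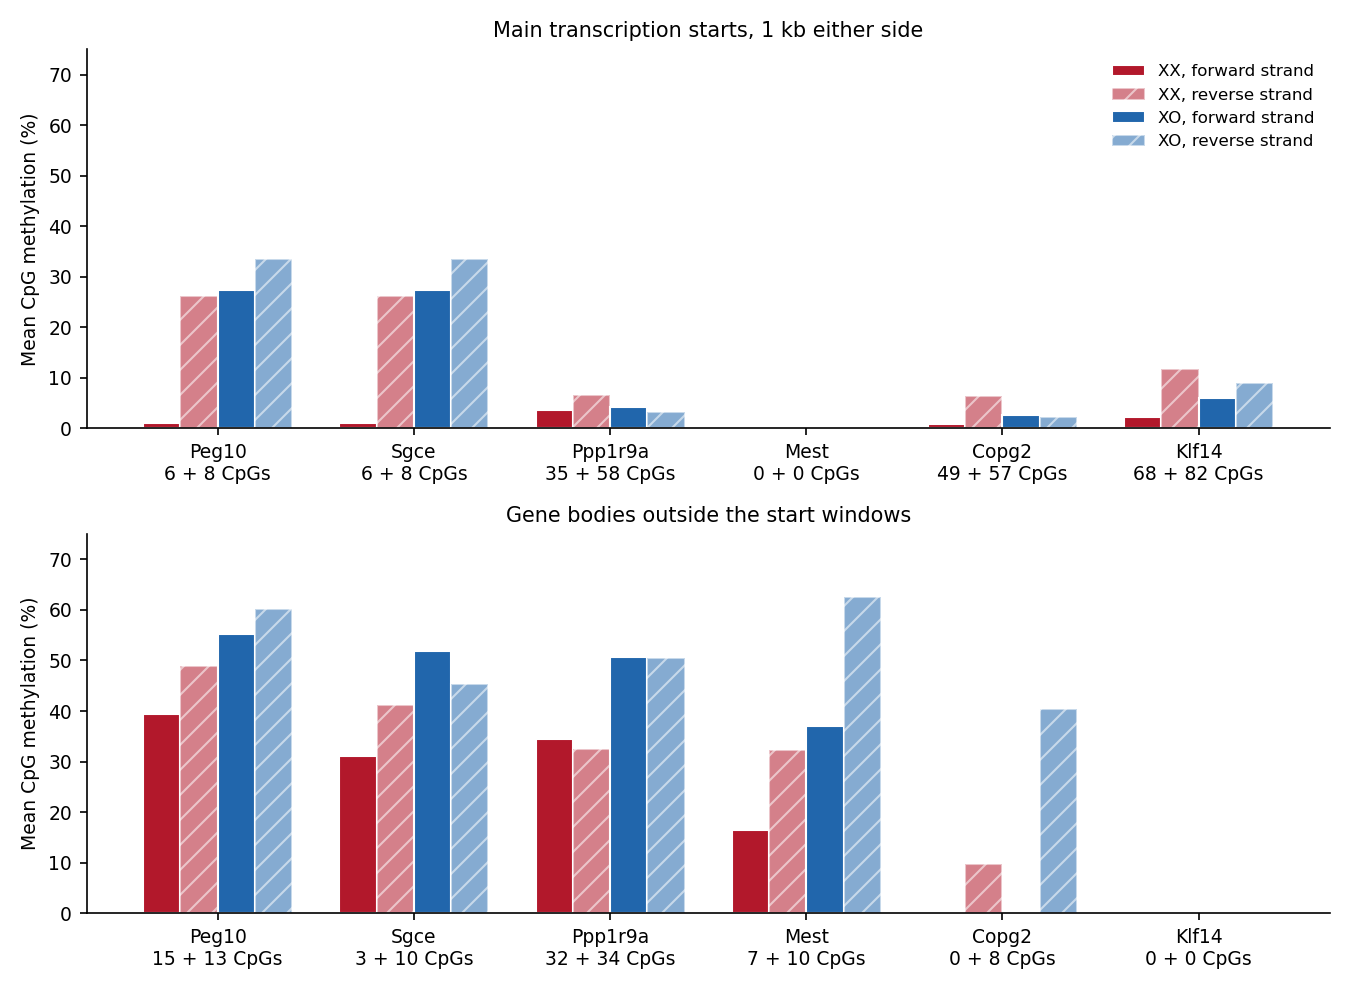
Mean CpG methylation (%) within 1 kb of the main start (upper) and in the gene body outside start windows (lower), for each gene, in XX (red) and XO (blue) cells, with plain bars for the forward and hatched bars for the reverse strand. The number of forward and reverse CpGs stands under each gene, and a gene with 0 CpGs on a strand has no bar. In the bodies, every XX bar is below the XO bar of its strand, while at the starts this holds on both strands only for the shared CpGs of Peg10 and Sgce.

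Mest, also called Peg1, is a paternally expressed gene for a protein of the alpha/beta hydrolase fold family and affects growth of the embryo. No CpG had a value within 1 kb of its main start (30738050), although the window holds 110 CpG sites in the genome. The window is crossed by 7 MspI fragments, of 12, 14, 303, 398, 463, 625 and 963 bp, so all but the one of 303 bp were shorter or longer than any fragment measured in the 6 genes. The windows of 4 of the other 9 starts held no CpG either. The methylation of the main Mest control promoter therefore has no value in either library.

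The CpGs nearest to the main Mest start lay on both sides of it, in introns. Downstream, 8 CpG cytosines from 1204 to 1284 bp averaged 18.3% in XX against 35.5% in XO. The forward strand was 10% to 12.5% in XX against 17.1% to 34.1% in XO, and the reverse strand was 14.6% to 31.9% in XX against 36.4% to 63.6% in XO, so XX was lower at all 8. Upstream, 7 CpGs at positions -2756 to -2541 bp averaged 32.4% in XX against 70.7% in XO. Their forward strand was 19.05% and 33.3% in XX against 47.4% at both CpGs in XO. Their reverse strand was 25.9% to 48.1% in XX against 72.7% to 81.8% in XO.

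The windows of the Mest starts at 30731968, 30733454 and 30733506 shared 10 CpGs, which averaged 12.3% ± 16.5 in XX against 17.4% ± 27.9 in XO. The forward strand gave 10.9% and 25.2% and the reverse strand 13.8% and 9.60%, so the strands went in opposite directions. Most of this forward mean came from 1 CpG with 54.3% in XX against 96.2% in XO, next to 4 CpGs with 0% and 7.41%. The windows of the starts at 30742076 and 30742089, both of retained-intron transcripts, shared 5 CpGs on the reverse strand, with 31.3% ± 4.47 in XX against 64.2% ± 17.4 in XO. A further 8 CpGs, upstream of the outermost Mest start, averaged 18.2% in XX against 45.2% in XO. The gene body outside start windows had 17 CpGs on 3 fragments, including those on either side of the main start described above, with 25.7% ± 11.9 in XX against 52.0% ± 22.7 in XO. XX was lower at 16 of the 17, on the forward strand by 20.5 points and on the reverse strand by 30.3 points, and its mean was 0.495 of the XO mean.

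Copg2 encodes a gamma subunit of the COPI coat of Golgi vesicles and lies tail to tail with Mest on the opposite strand. The windows of its 8 starts held the same 106 CpG cytosines. They averaged 3.84% ± 7.22 in XX against 2.46% ± 4.74 in XO at the main start (30896739), and 57 of the 106 were 0% in both libraries. Forward CpGs averaged 0.813% in XX against 2.62% in XO, and reverse CpGs 6.45% and 2.33%. Far from the starts, 8 CpGs on 2 intronic fragments, all on the reverse strand, averaged 9.69% ± 6.79 in XX against 40.3% ± 19.02 in XO. On the fragment shown above, the 4 CpGs were 5.56%, 9.30%, 23.3% and 11.6% in XX and 28.6%, 74.1%, 51.9% and 59.3% in XO cells. XX was thus lower at all 4, which can come from the same reads. On the other fragment, the 4 CpGs ranged from 3.33% to 15% in XX and from 22.2% to 33.3% in XO. The XX mean of the Copg2 body was 0.240 of the XO mean, and no forward CpG bears on it.

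Klf14, a transcription factor of the Krüppel-like family, is a single-exon gene expressed from the maternal allele. All its 150 measured CpG cytosines, with both strands read at 57 sites, lay within 1 kb of its start (30959078), so its body has no value. They averaged 7.41% ± 16.3 in XX against 7.53% ± 13.2 in XO. The forward strand was 2.16% in XX against 5.92% in XO over 68 CpGs, and the reverse strand 11.8% and 8.87% over 82 CpGs. Of its 11 fragments, 9 were under 10% methylated in XO cells, and the coding fragments farthest from the start were not: 8 reverse CpGs averaged 59.2% in XX against 44.3% in XO, and 5 reverse CpGs averaged 41.4% and 44.4%. On the fragment nearest the start, 6 reverse CpGs averaged 31.3% in XX against 5.45% in XO, while 7 forward CpGs averaged 12.3% and 12%.

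Strands could be compared at the same CpG at 136 sites of the 6 genes. Outside start windows, 21 sites had both strands, and the median absolute difference between strands was 9.29 points in XX and 13.5 points in XO cells. At 16 of these 21, both strands were lower in XX, at 0 both were higher, at 4 the strands went in opposite directions and at 1 a strand was equal. Across the 177843 autosomal sites outside the main start windows of protein-coding genes, both strands were lower at 44.8%, both higher at 5.89% and opposite at 23.1%. The median absolute strand difference there was 5.69 points in XX and 8.06 points in XO cells. This background also holds intergenic sites and sites near other annotated starts, so it is not a like set for the 21 sites. Within start windows, 115 sites had both strands, of which 7 were lower on both, 3 higher on both, 24 opposite and 81 equal on at least 1 strand. Across the 244581 autosomal sites within main start windows, both strands were lower at 10.1%, both higher at 8.35% and opposite at 18.1%. The forward strand of all start windows of the 6 genes averaged 2.81% in XX against 7.63% in XO (171 CpGs), and the reverse strand 10.2% and 8.20% (222 CpGs). The part of depth in these strand differences was not tested.

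**Figure D4:**
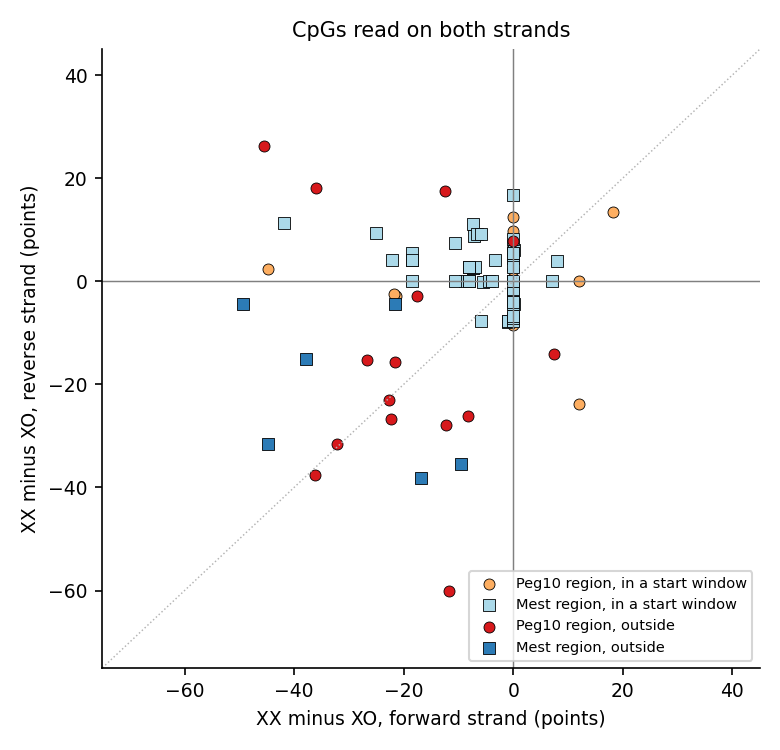
XX minus XO in percentage points on the reverse strand against that on the forward strand for the 136 CpG sites of the 6 genes read on both strands. Circles mark the Peg10 domain and squares the Mest domain, in darker colours outside start windows. The dotted line marks equal differences. Of the 21 CpG sites outside start windows, 16 lie in the lower left corner of the plot, where both strands were lower in XX.

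The values were set beside those of all autosomal protein-coding genes with at least 3 CpGs in the same kind of feature. Of 13885 main starts, 11.6% were lower and 1.96% higher in XX by at least 10 points. Among the 5 members with a value at the main start, Peg10 and Sgce were lower, on the same 14 CpGs, and none was higher. Their XO value of 30.8% was above that of 88.95% of main starts, and 7.11% of main starts had a more negative difference. The median main start was 7.59% in XX against 8.91% in XO. Of 12826 gene bodies, 72.5% were lower in XX by at least 10 points, with a median difference of -15.8 points. Among the 5 members with a value, the bodies of Peg10, Ppp1r9a, Mest and Copg2 were lower, a share of 80.0% that is close to the background, and their median difference over the 5 was -17.2 points. A more negative difference than that of Mest was found in 12.7% of bodies, and than that of Copg2 in 6.10%, while that of Sgce was less negative than 78.5% of bodies.

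**Figure D5:**
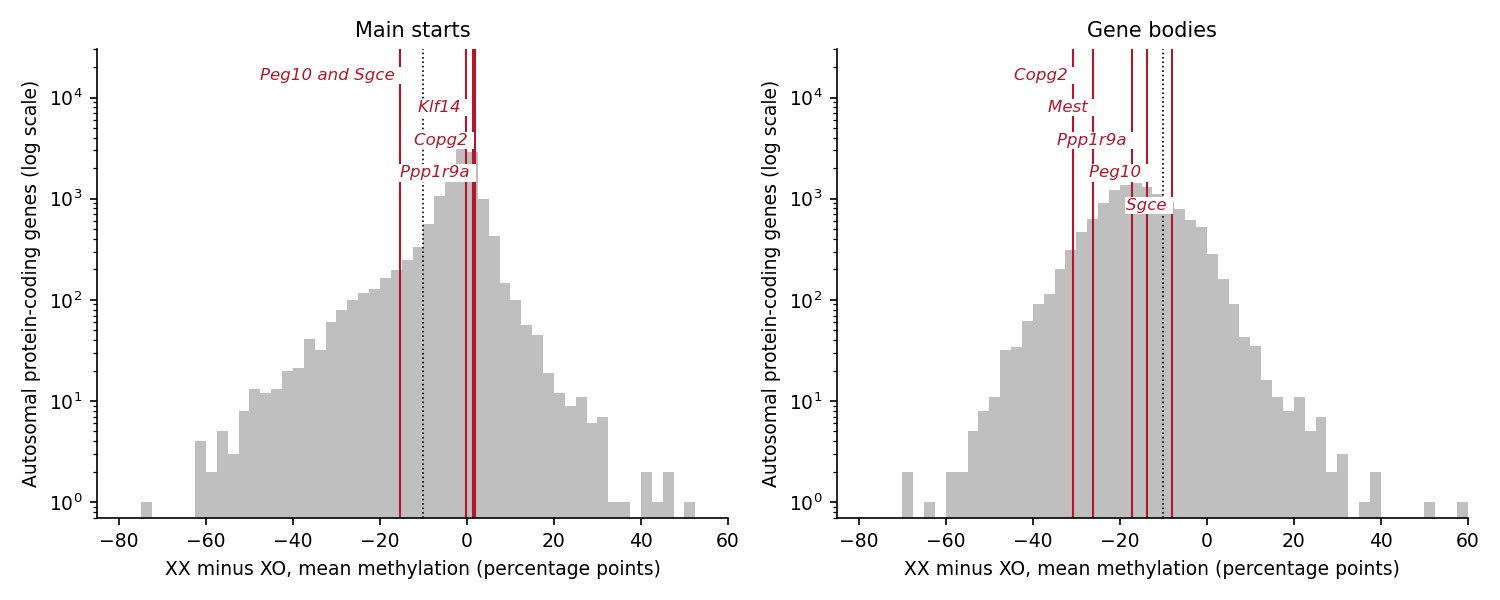
Number of autosomal protein-coding genes (log scale) by XX minus XO in mean methylation (percentage points), for main starts (left) and gene bodies (right), with red lines at the genes of the Peg10 and Mest domains and a dotted line at 10 points lower in XX. The starts of Klf14, Copg2 and Ppp1r9a lie near 0, that of Peg10 and Sgce at -15.4 points, and the bodies run from -30.7 points at Copg2 to -7.95 points at Sgce.

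The main starts also differed in sequence. Within 1 kb of the main start, Mest had 12 copies of TGCCGC on either strand, at positions from -617 to 741 bp, and only 2 of 20807 autosomal protein-coding starts, Mest included, had as many. Peg10 and Sgce shared 2 copies, 1 of them in the intergenic stretch shown above, Copg2 and Klf14 had 1 each and Ppp1r9a had 0, where 44.2% of all starts had at least 1. None of the copies at Mest, Peg10 and Sgce lay on a fragment with a measured CpG. GCGCATGC, which is part of the binding site of NRF1, had no copy at any of the 6 starts and a copy at 7.14% of all starts. MspI sites (CCGG) numbered 5 at Peg10 and Sgce and 6 at Mest, against 12 at Copg2, 13 at Klf14 and 16 at Ppp1r9a. The measured share of CpG cytosines in the window was 5.47% at Peg10, 5.93% at Sgce and 0% at Mest, against 34.7% at Ppp1r9a, 52.5% at Copg2 and 52.8% at Klf14.

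Among 16 other imprinted genes listed as maternally methylated, taken over all their starts, all 16 had a value. XX was lower at each, by at least 10 points at 7. The most negative differences were at Kcnq1ot1 (23.6% in XX against 64.3% in XO) and Airn (14.6% and 39.3%), both noncoding RNAs that silence genes in cis, and the least negative at Inpp5f (20.9% and 21.3%) and Nnat (25.2% and 27.4%). The median of the 16 was -9.09 points, so the 15.4 points at Peg10 lay within their range. Their values rest on 7 CpGs at Kcnq1ot1 to 351 at Gnas. All starts of a gene were pooled without sorting control promoters from others. The values therefore do not stand for maternally methylated regions alone. Among autosomal protein-coding main starts, 11.6% were lower and 1.96% higher in XX by at least 10 points. That background takes the main start alone, so it is not a like measure for the 16 genes, taken over all starts. Its share lower by any amount is not given here. The median difference of those main starts was -1.38 points, so most of them were also lower in XX. Of 11 genes beside the Peg10 domain, 6 had a value at the main start and 2 were lower by at least 10 points, Col1a2, a collagen gene (20.3% and 38.2%), and Asb4 (5.34% and 17.3%). Pon2 differed by -1.10 and Calcr by -3.17 points, and Casd1 and Bet1 were higher in XX by 1.08 and 2.31 points. Of 12 genes beside the Mest domain, 8 had a value, of which Cpa4, a carboxypeptidase gene, was lower by at least 10 points (32.4% and 48.8%) and Zc3hc1 higher (20.2% and 7.998%). Cep41 differed by -4.35, Nrf1 by -1.29 and Podxl by -0.247 points.

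The genes whose main starts were most like that of Peg10, by Euclidean distance in the 2 libraries among 10724 starts with at least 20 CpGs, were Cnot8 (15.4% in XX against 30.3% in XO, distance 0.525 points), Fbxo40 (14.8% and 30.5%, 0.663 points) and Mfsd6l (15.3% and 31.7%, 0.900 points). No such genes can be given for Mest, as its main start had no value.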

How the data were processed

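RRBS libraries were made from 1 XX and 1 XO population with the NuGEN Ovation Methylseq kit. The authors deposited the percent methylation of 1782730 CpG cytosines, with both strands listed separately and 0 values missing. Their processing notes name bcl2fastq, Bismark and the mm10 build. Versions, trimming and the coverage minimum are not given in the sources used here, and percentages without read counts allow no interval. Of 1756096 autosomal positions, 1756046 lay on a CpG of GRCm38.

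Genes came from GENCODE M21, and CpGs were placed in them with Python 3.11.15, numpy 2.4.6, pandas 2.3.3 and pysam 0.24.0, and plotted with matplotlib 3.10.9. Values are means over CpGs. A start window was 1 kb either side, the main start was that of the APPRIS principal transcript, and a body was the gene outside all start windows. In the background, windows of the gene itself were left out of its body. MspI fragments were taken from CCGG in the reference. A feature needed 3 CpGs, and 10 points was the size used for counting, without p-values, as there was 1 library per karyotype. The window code was checked on simulated data. The members and lists were chosen with earlier results of these data known. From the other lists, the genes with the 2 largest and 2 smallest differences were named, with those higher in XX, and the 3 starts nearest to that of Peg10 in both libraries. Alternatives changed the window, the CpGs counted and the summary.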

Additional observations from a re-analysis of the deposited data

How the results depend on the processing

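Of 64 recalculated values, 46 stayed within 1.5 times of the value reported and in its direction, 18 did not, and 0 reversed a difference of at least 10 points. All 35 alternatives to such a difference kept its direction, but many of them could not change it. At the Peg10 start, the other windows, the 0% or 100% filter and the count by fragment kept the same 14 CpGs, at -15.4 points. The Sgce start repeats all settings on these CpGs. In the Mest and Copg2 bodies, the 0% or 100% filter and the repeat filter removed nothing. The 2 of the 35 that moved came from counting the start windows in the whole gene span. They gave -6.93 points for the Ppp1r9a body and -2.28 for the Copg2 body, since those windows are low in both libraries. Klf14 over its whole span differed by -0.128 points, and the Mest main start, without a value at 1 kb, gave -17.2 points with 2 kb, from the 8 intronic CpGs. Without soft-masked repeats the Sgce body differed by -4.06 points. At the low starts, the value moved under most settings at Klf14. At Ppp1r9a and Copg2 it moved only under the CpG filters and the median given next. Leaving out CpGs at 0% or 100% in both libraries gave 3.34 points at Ppp1r9a, 2.98 at Copg2 and -0.202 at Klf14, only CpGs with both strands gave 0.413, 0.309 and -2.21, and the median over CpGs gave 0, 0 and -1.35. At Klf14, 500 bp gave -0.594 points, and counting each MspI fragment once, an alternative chosen after seeing the data, gave 0.578. The share of autosomal main starts lower in XX was 4.75% with 20 points, 6.38% with at least 10 CpGs and 21.95% with genes of any type, and that of bodies was 31.9% with 20 points. CpGs with both strands were lacking for the bodies of Sgce, Copg2 and Klf14. No paired analysis was possible because each karyotype had 1 library. Depth is unknown, so no value has a counting interval.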
